A study of Aspergillus luchuensis with 6 samples.

Results

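In rice koji of *Aspergillus luchuensis*, 260 of 11488 listed locus tags lay in unbroken stretches of silent tags. A tag was called silent where its count was 0 in all 6 libraries, and a stretch was 5 or more silent tags standing next to each other when the tags are ordered by number. There were 26 such stretches. They held 38.3% of the 678 silent tags, and the other 418 silent tags stood alone or in shorter runs. The tags were thus chosen by their counts in both strains: their lack of reads is a description, and no difference between the strains could be tested in them.

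*A. luchuensis* is a filamentous mould used to make koji, steamed grain overgrown with mycelium, for Japanese distilled spirits. RNA from rice koji was sequenced in 3 libraries of U1, a mutant with strong starch degradation obtained, per the title of the series, by ion beam mutagenesis, and in 3 libraries of wild type (WT). Both have the strain background RIB2601, and the labels call the material whole cell. The sources used here give no age of the koji and do not say if replicates are separate cultures. P-values therefore reflect the spread among libraries alone, and that spread may be technical.

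As background, genes of filamentous fungi that serve one secondary metabolite often lie side by side and are read or left unread together, depending on the growth condition. Gene content also differs between strains of a species, often in blocks of neighbouring genes, and repeated sequences such as transposons are commonly kept silent. None of these can be assigned to a stretch here. The deposited files pair no tag with a gene name, a function, a length or a position, and 0 of the tags occur in the RefSeq table of 12941 genes of the species that was searched. That table uses another series of tags, so the 0 does not show that the genes are missing from it. Genes are therefore described by tag, place in the listing and level. Without lengths, levels of different tags cannot be compared as amounts of transcript per gene.

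The 6 libraries held 4427719 to 8420828 counts in U1 and 4025119 to 5064126 counts in WT. Levels are given as CPM, the count per 1000000 counts on library sizes scaled by trimmed-mean factors. A level of 0.356 to 0.657 CPM in a U1 library and 0.611 to 0.759 CPM in a WT library is what 3 counts stand for. Summed over a strain and without that scaling, 3 counts correspond to 0.164 CPM in U1 and 0.224 CPM in WT. Over all 31744435 counts, also unscaled, they correspond to 0.0945 CPM. A count of 0 allows levels up to these floors, which cover counting error only. A gene that is missing from the strain, one that is present and unread, and one whose reads the authors' counting did not assign cannot be told apart in such a 0.

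The stretches were concentrated at the end of the listing. Of the 26 stretches, 24 lay between AKAW_10181 and AKAW_11461, a zone of 1281 tags that makes up 11.2% of the listing. This zone held 242 of the 260 tags in stretches, or 93.1%, against 29.4% of the 418 silent tags outside stretches. Within the zone 28.5% of the tags were silent, and outside it 3.07%. The zone was drawn from the first to the last of the 24 stretches, after their places had been seen, so it holds them by construction. The contrasts of 93.1% with 29.4% and of 28.5% with 3.07% follow in part from that choice and were not tested. The blocks of listed tags used below were not drawn around the stretches. The numbering ran without a gap from AKAW_00001 to AKAW_11472 and resumed with 16 tags from AKAW_20001 to AKAW_20016, of which 1 was silent and none lay in a stretch. No number was missing inside any stretch. The sources used here do not say what the order of the numbers follows, so tags next to each other in number need not be next to each other in the genome.

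**Figure D1:**
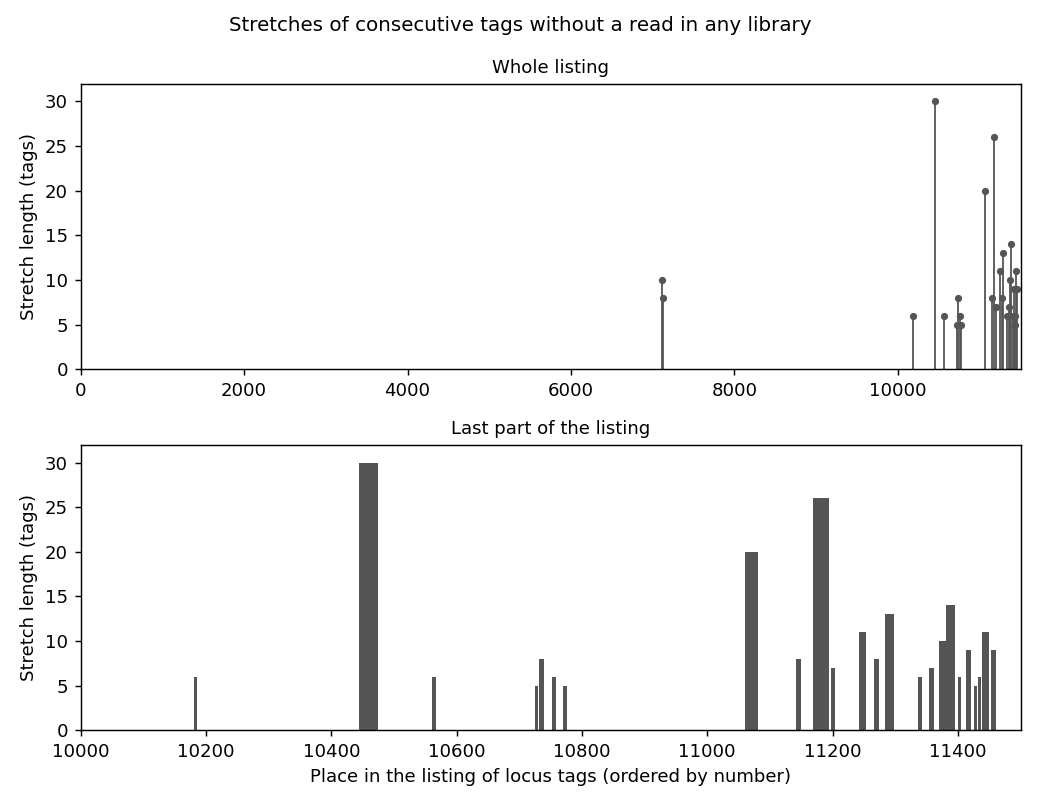
Length of each stretch in tags (y axis) against its place in the listing (x axis), with the 26 stretches as stems over all 11488 tags above and, below, with bars as wide as the stretch over the listing from 10000 on. Apart from 2 stretches near place 7112, all begin at place 10181 or later.

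Counted in blocks of 1000 listed tags, the silent share was 1.5% to 4.2% in the first 7 blocks and 6.1% in the eighth, which holds the only stretches of the first 10000 tags. It was 2.4% and 2.8% in the next blocks, 12.1% from place 10001 to 11000, and 52.0% among the last 488 tags. Those 488 include the 16 tags from AKAW_20001 to AKAW_20016, of which 1 was silent. Silent tags outside stretches numbered 15 to 43 in each of the first 10 blocks, 55 in the eleventh and 78 among the last 488. The tags that were read in this last part were also at low levels: their median was 2.0 CPM in U1 and 1.97 CPM in WT, against 29.9 CPM in U1 and 29.4 CPM in WT over all 10810 read tags.

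**Figure D2:**
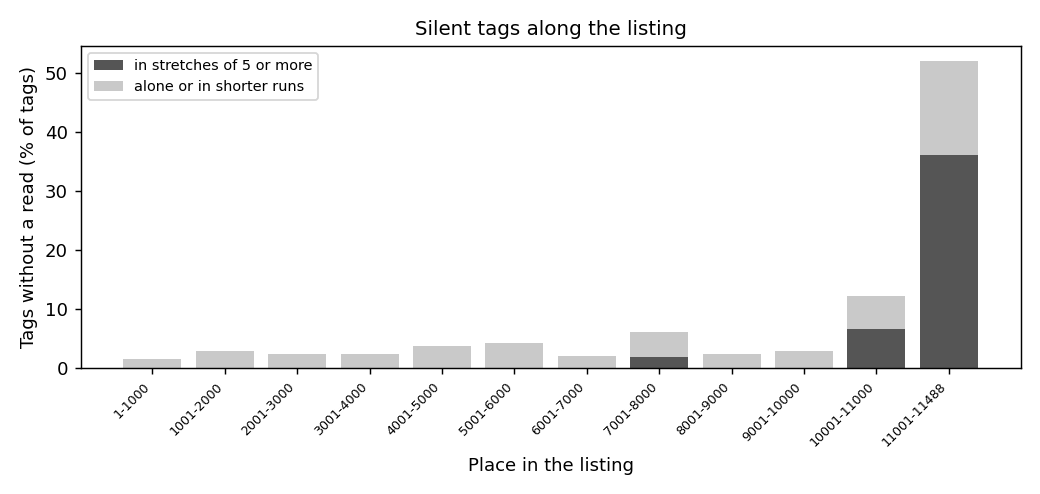
Share of tags without a read in any library (y axis, percent) in blocks of 1000 listed tags (x axis; the last block has 488), split into tags in stretches of 5 or more (dark) and other silent tags (light). Stretches occur in 3 of the blocks, and the last block is silent in 52.0% of its tags. That block includes the 16 tags from AKAW_20001 to AKAW_20016.

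The longest stretch ran over 30 tags, from AKAW_10445 to AKAW_10474. The next were 26 tags from AKAW_11169 to AKAW_11194 and 20 tags from AKAW_11061 to AKAW_11080, and these 3 held 76 of the 260 tags, or 29.2%. Stretches of 10 to 14 tags were AKAW_11382 to AKAW_11395 with 14, AKAW_11285 to AKAW_11297 with 13, AKAW_11243 to AKAW_11253 and AKAW_11439 to AKAW_11449 with 11 each, and AKAW_07112 to AKAW_07121 and AKAW_11371 to AKAW_11380 with 10 each. The median stretch had 8 tags.

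The shorter stretches were spread over the same zone, apart from AKAW_07123 to AKAW_07130 with 8 tags. Those of 9 tags began at AKAW_11413 and AKAW_11453. Those of 8 tags inside the zone began at AKAW_10732, AKAW_11142 and AKAW_11266, and those of 7 at AKAW_11198 and AKAW_11355. There were 6 stretches of 6 tags, beginning at AKAW_10181, AKAW_10562, AKAW_10753, AKAW_11337, AKAW_11400 and AKAW_11432. The 3 shortest stretches, with 5 tags, began at AKAW_10726, AKAW_10771 and AKAW_11426. Just under the limit of 5 tags stood 9 runs of 4 silent tags.

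Some stretches were parts of longer, almost unread blocks, and others were not. In 5 places a single read tag parted one stretch from the next. In 3 of these that tag had 1 read in all: AKAW_07122 and AKAW_11381 were each read once in WT replicate 3, and AKAW_10731 once in U1 replicate 3. The other two parting tags, AKAW_11431 and AKAW_11438, were read in every library and are described below. With tags of 1 count admitted, AKAW_07104 to AKAW_07131 formed 1 block of 28 tags with 0 reads in U1 and 4 in WT. In the same way AKAW_11167 to AKAW_11195 formed a block of 29 tags with 1 read in U1 and 1 in WT. AKAW_11371 to AKAW_11396 formed a block of 26 tags with 0 in U1 and 2 in WT. AKAW_10726 to AKAW_10739 formed a block of 14 tags with 1 in U1 and 0 in WT. The longest stretch gained only AKAW_10475. Several stretches gained no tag, among them AKAW_11061 to AKAW_11080 with 20 tags and AKAW_11285 to AKAW_11297 with 13.

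The block near place 7112 had a sharp edge on one side only. AKAW_07103, directly before its first silent tag, had 428, 214 and 167 reads in the U1 libraries and 172, 177 and 149 in the WT libraries, which gave 41.6 ± 7.94 CPM in U1 and 38.3 ± 3.66 CPM in WT (SD, n = 3 each). The libraries of the strains overlapped, and the tag did not pass the test (log2 fold change 0.14, edgeR adjusted p = 0.492). From AKAW_07104 to AKAW_07132 the 29 tags had 0 reads in the 3 U1 libraries and 6 reads in the 3 WT libraries. On the far side the levels were low and uneven over several tags. AKAW_07133 had 3 reads in U1 and 0 in WT, AKAW_07135 was at 2.36 CPM in U1 and 1.78 CPM in WT, and AKAW_07138 was at 4.66 CPM in U1 and 3.58 CPM in WT. The first tag at 10 CPM or more in both strains was AKAW_07139, with 27.3 ± 1.33 CPM in U1 and 28.5 ± 4.57 CPM in WT (SD, n = 3 each).

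Each strain taken alone added some stretches to those silent in both. With the 3 U1 libraries alone, 29 stretches held 321 tags, and with the 3 WT libraries alone, 28 stretches held 295 tags. The 264 tags in both sets made up 82.2% of the U1 set and 89.5% of the WT set, but 260 of them are in both sets by definition, so these shares are no sign of agreement. The U1 set held 61 further tags and the WT set 35. No tag inside a stretch of the U1 set had more than 6 reads summed over WT. Of the 29 U1 stretches, 5 held no stretch silent in both strains, those beginning at AKAW_10250, AKAW_10741, AKAW_10760, AKAW_11308 and AKAW_11344. Of the 28 WT stretches, 25 held a stretch silent in both strains and 3 did not. In 1 of those 3, AKAW_06005 to AKAW_06015, U1 libraries had 1054 reads on 9 of the 11 tags, up to 470 on AKAW_06014. The other two, beginning at AKAW_04748 and AKAW_08289, had 1 and 5 reads in U1. Over the whole listing 848 tags had no read in U1 and 881 none in WT, and the WT libraries hold 42.3% of all counts. The part of this difference in depth was not tested.

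The tags that border the stretches were mostly close to unread themselves. A border tag is the listed tag just before or just after a stretch, and the 26 stretches had 47 of them, since 5 served as border on both sides. Border tags had to have at least 1 read, so a level above 0 was set by the choice. Of the 47, 16 had a single read in all libraries together, 6 had 2 or 3, 8 had 4 to 29 and 17 had 30 or more. The median level of the border tags was 0.0979 CPM in U1 and 0.164 CPM in WT, below the 3-count floor of each strain, against 29.9 and 29.4 CPM over all read tags in U1 and WT. On library totals alone, the scale of those floors, the border medians were 0.1 CPM in U1 and 0.16 CPM in WT. Without WT replicate 1 the WT median was 0.246 CPM. In 6 of the 26 stretches both borders had at most 3 reads. In 2 stretches, AKAW_11061 to AKAW_11080 and AKAW_11453 to AKAW_11461, both borders reached 10 CPM in both strains.

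**Figure D3:**
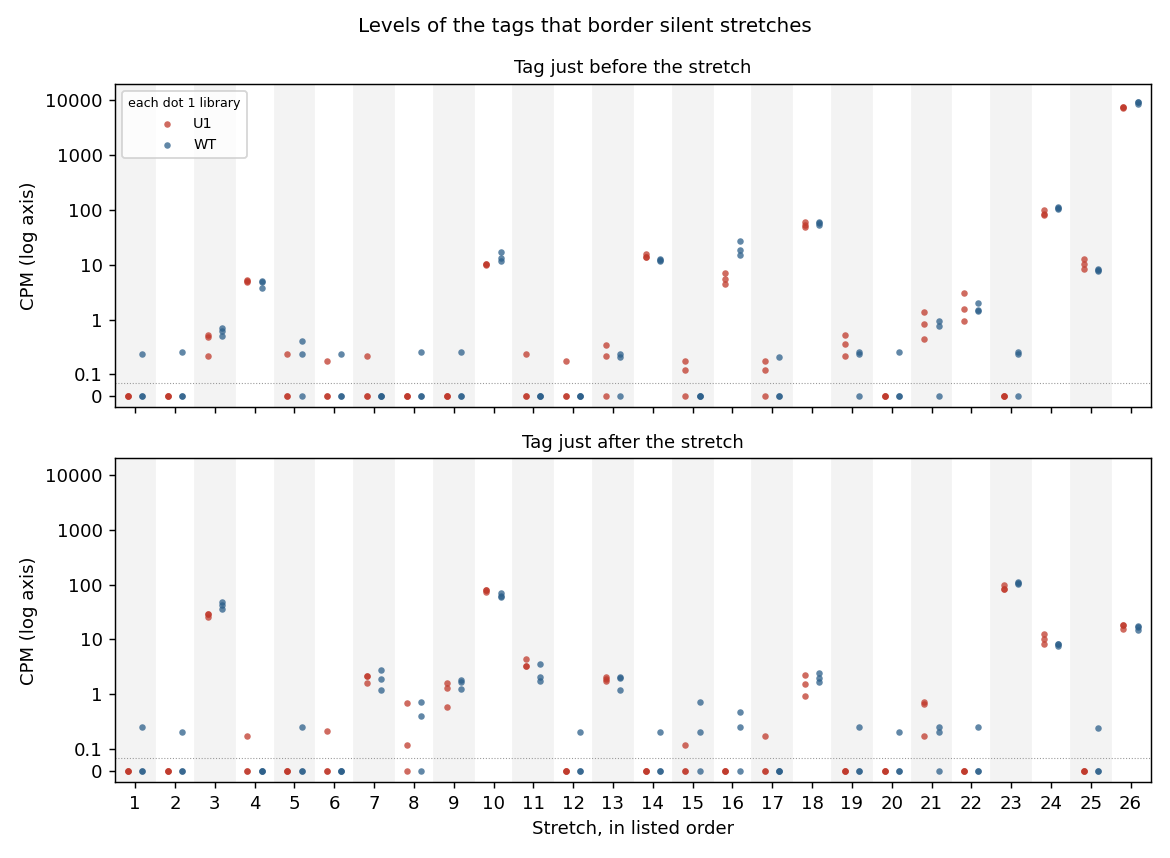
Level in CPM (y axis, log scale, with 0 drawn below the dotted line) of the tag just before (top) and just after (bottom) each stretch, numbered 1 to 26 in listed order (x axis). Each dot is 1 library, U1 red on the left and WT blue on the right of each position. Levels reach from 0 to the 7380 CPM in U1 and 9130 CPM in WT of AKAW_11452 before stretch 26. Of the 47 border tags, 14 have no read in U1 and 6 none in WT, each with at most 3 reads in all. Over the whole listing, silent tags included, 848 have none in U1 and 881 none in WT.

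The longest stretch was bordered by a weakly read tag on one side and a nearly silent one on the other. AKAW_10444, before AKAW_10445, had 44, 29 and 22 reads in the U1 libraries and 25, 16 and 19 in the WT libraries. Its level was 5.04 ± 0.201 CPM in U1 and 4.57 ± 0.667 CPM in WT (SD, n = 3 each), with overlapping libraries, and it did not pass the test (log2 fold change 0.14 ± 0.235 SE, edgeR adjusted p = 0.73). AKAW_10475, after the stretch, had 1 read, in U1 replicate 2. The first tag at 10 CPM in both strains stood 10 places before the stretch and 13 places after it.

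The second longest stretch, of 26 tags, had a border with 1 read on each side: AKAW_11168 was read once in U1 replicate 2 and AKAW_11195 once in WT replicate 1. The next tag, AKAW_11196, was read in all libraries at a mean of 34.9 ± 5.92 CPM in U1 and 25.9 ± 3.18 CPM in WT (SD, n = 3 each; log2 fold change 0.44, edgeR adjusted p = 0.0287). After it, AKAW_11197 had 5 reads in all, and the stretch of 7 tags from AKAW_11198 began. A tag at well above 10 CPM in both strains thus stood alone between stretches of 26 and 7 silent tags.

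The third longest stretch, of 20 tags, changed to read tags within a single place on both sides. AKAW_11060, before it, had 10.3, 9.98 and 10.1 CPM in the U1 libraries and 17.3, 11.9 and 13.2 CPM in the WT libraries. All U1 libraries lay below all WT libraries, but the tag did not pass the test (log2 fold change -0.49 ± 0.174 SE, edgeR adjusted p = 0.0502). AKAW_11081, after it, had 73.1, 79.8 and 79.1 CPM in the U1 libraries and 61.1, 70.2 and 58.7 CPM in the WT libraries. It rose in U1 (log2 fold change 0.28 ± 0.0898 SE, edgeR adjusted p = 0.0278), with all U1 libraries above all WT libraries. That call was lost without U1 replicate 2 or 3 or WT replicate 1 or 3, at adjusted p = 0.0624 to 0.113, and with DESeq2's Wald test.

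The stretch of 14 tags and both stretches of 10 tags had at least one border at a few reads or fewer. The stretch from AKAW_11382 was bordered by AKAW_11381 and AKAW_11396, with 1 read each, both in WT. The stretch from AKAW_11371 was bordered by AKAW_11370, with 3, 3 and 1 reads in the U1 libraries and 0, 1 and 1 in the WT libraries, and by AKAW_11381. The stretch from AKAW_07112 had AKAW_07111 and AKAW_07122 as borders, each read once, in WT. None of these tags passed the filter on low counts, so none was tested between the strains.

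The stretch of 13 tags from AKAW_11285 had the border with the largest fold difference between the strains among the 13 border tags tested. AKAW_11284, before it, had 59, 25 and 25 reads in the U1 libraries and 134, 77 and 59 in the WT libraries, although U1 replicate 1 was the deepest library. Its level was 7.0, 4.38 and 5.48 CPM in U1 and 27.3, 18.4 and 14.9 CPM in WT, without overlap. In U1 it fell by 1.82 on the log2 scale (SE 0.235, edgeR adjusted p = 2.24e-05), a 3.54-fold difference. With any 1 library left out the log2 fold change was between -2.05 and -1.53 and the call held. On the other side of the stretch AKAW_11298 had 0 reads in U1 and 3 in WT, too few for a test.

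The stretches of 11 tags each had one read border and one border with a single read. AKAW_11242, before AKAW_11243, had 14.0, 13.7 and 15.6 CPM in the U1 libraries and 12.6, 11.9 and 12.4 CPM in the WT libraries. The libraries did not overlap, but the tag did not pass the test (log2 fold change 0.22 ± 0.152 SE, edgeR adjusted p = 0.354). AKAW_11254, after that stretch, had 1 read, in WT replicate 1. AKAW_11438, before AKAW_11439, had 10.2, 12.6 and 8.33 CPM in the U1 libraries and 7.73, 8.11 and 8.35 CPM in the WT libraries, with overlap and no call (log2 fold change 0.38 ± 0.196 SE, edgeR adjusted p = 0.193). AKAW_11450, after that stretch, had 1 read, in WT replicate 2.

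Of the 9 tags from AKAW_11413, the border before, AKAW_11412, had 0.949, 1.58 and 3.07 CPM in the U1 libraries and 2.04, 1.43 and 1.52 CPM in the WT libraries, which overlapped, and it was too low to be tested. The border after, AKAW_11422, had 1 read, in WT replicate 3.

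One of the most read tags of the koji bordered a stretch. AKAW_11452, before the 9 silent tags AKAW_11453 to AKAW_11461, had 63807, 40285 and 34292 reads in the U1 libraries and 46385, 38838 and 34304 in the WT libraries. It was the most read tag in each U1 library, at 0.735% to 0.774% of the counts, and the second most read in each WT library, at 0.852% to 0.916%. Its level was 7380 ± 283 CPM in U1 and 9130 ± 399 CPM in WT (SD, n = 3 each), with all U1 libraries below all WT libraries. In U1 it fell by 0.31 on the log2 scale (SE 0.082, edgeR adjusted p = 0.0104). That call was lost without WT replicate 1 or 2, at adjusted p = 0.0748 and 0.0645.

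The surroundings of AKAW_11452 were almost unread. Of the 61 tags from 40 places before to 20 places after it, 48 were silent and 13 were read. AKAW_11452 alone held 97.4% to 97.9% of the reads of this window in the U1 libraries and 97.8% to 98.2% in the WT libraries. Directly before it stood AKAW_11451, which was silent, and AKAW_11450, with 1 read. The stretch on its other side ended at AKAW_11462, with 18.6, 18.7 and 15.8 CPM in the U1 libraries and 16.7, 14.8 and 17.7 CPM in the WT libraries, which overlapped (log2 fold change 0.12 ± 0.143 SE, edgeR adjusted p = 0.608).

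**Figure D4:**
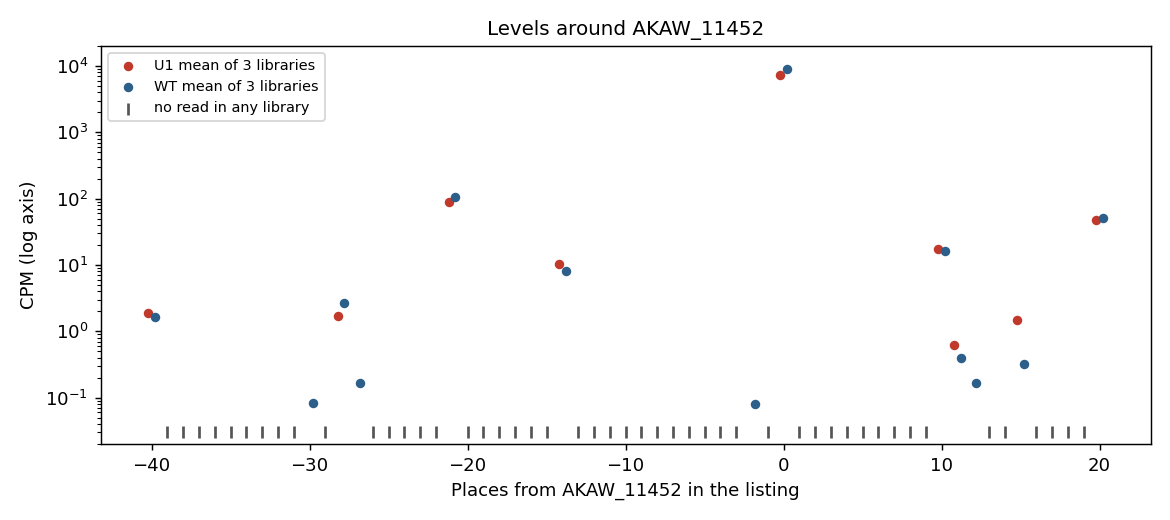
Mean level over 3 libraries in CPM (y axis, log scale) of the tags from 40 places before to 20 places after AKAW_11452 (x axis), U1 red and WT blue, with ticks at the bottom for tags without a read in any library. Of the 61 tags 48 are silent, and the next highest tag, AKAW_11431, is at 88.0 CPM in U1 and 107 CPM in WT.

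AKAW_11431 in the same window stood between silent stretches of 5 and 6 tags, with a silent tag directly on each side. It had 82.8, 99.5 and 81.7 CPM in the U1 libraries and 107, 111 and 104 CPM in the WT libraries, without overlap. In U1 it fell by 0.29 on the log2 scale (SE 0.087, edgeR adjusted p = 0.0214). The call was lost on library totals alone (adjusted p = 0.0988) and without U1 replicate 1 or 3 or WT replicate 1 or 2, at adjusted p = 0.0639 to 0.0924.

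Among the shorter stretches, AKAW_10187 after the 6 silent tags from AKAW_10181 also differed between the strains. It had 29.5, 25.9 and 29.4 CPM in the U1 libraries and 36.6, 49.2 and 42.3 CPM in the WT libraries, without overlap. In U1 it fell by 0.59 on the log2 scale (SE 0.12, edgeR adjusted p = 0.00142), and the call held with any 1 library left out. Before the 7 silent tags from AKAW_11355 stood AKAW_11354, with 49.5, 61.3 and 51.9 CPM in the U1 libraries and 53.3, 61.1 and 58.5 CPM in the WT libraries. These overlapped, and the tag did not pass the test (log2 fold change -0.09 ± 0.101 SE, edgeR adjusted p = 0.595).

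Of the 47 border tags, 13 passed the filter on low counts and were tested. At an edgeR adjusted p under 0.05, 5 were called, 1 higher in U1 (AKAW_11081) and 4 lower (AKAW_11284, AKAW_10187, AKAW_11452 and AKAW_11431), and 8 were not. Over all 8790 tested tags 24.5% were called, 11.4% as higher and 13.1% as lower in U1. The libraries of the strains did not overlap in 7 of the 13 border tags tested, against 37.7% of all tested tags. The median log2 fold change was 0.04 for the 13 tags and 0.01 for all. The count of 5 became 2 without WT replicate 1 and 3 without U1 replicate 3. Calls over all tags became 1660 and 1961 in these settings, against 2153 with all libraries. The 34 untested border tags had at most 59 reads each over all libraries. Of the 47, 14 had no read in any U1 library and 6 none in any WT library. Each of these had at most 3 reads in all, so the contrast rests on single reads. Over the whole listing, silent tags included, it went the other way, with 848 tags unread in U1 and 881 in WT.

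Levels near a stretch were low and were higher farther away, up to and beyond 50 places. Among the tags 2 to 5 places away, 44 of 138 were silent without belonging to a stretch, and the median level of the 138 was 0.119 CPM in U1 and 0.152 CPM in WT. The median was 0.573 CPM in U1 and 0.447 CPM in WT at 6 to 10 places, 1.29 CPM in U1 and 1.4 CPM in WT at 11 to 20, and 8.29 CPM in U1 and 8.89 CPM in WT at 21 to 50. Beyond 50 places it was 30.5 CPM in U1 and 29.8 CPM in WT. The share of silent tags was 27.5% at 6 to 10 places, 16.4% at 11 to 20, 3.19% at 21 to 50 and 2.92% beyond. Most stretches lie in the zone at the end of the listing, where read tags that were no border had a median of only 7.1 CPM in U1 and 7.61 CPM in WT, so distance from a stretch and place in the listing were not separated. Levels below the strains' 3-count floors rest on single reads and carry no order between the strains.

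**Figure D5:**
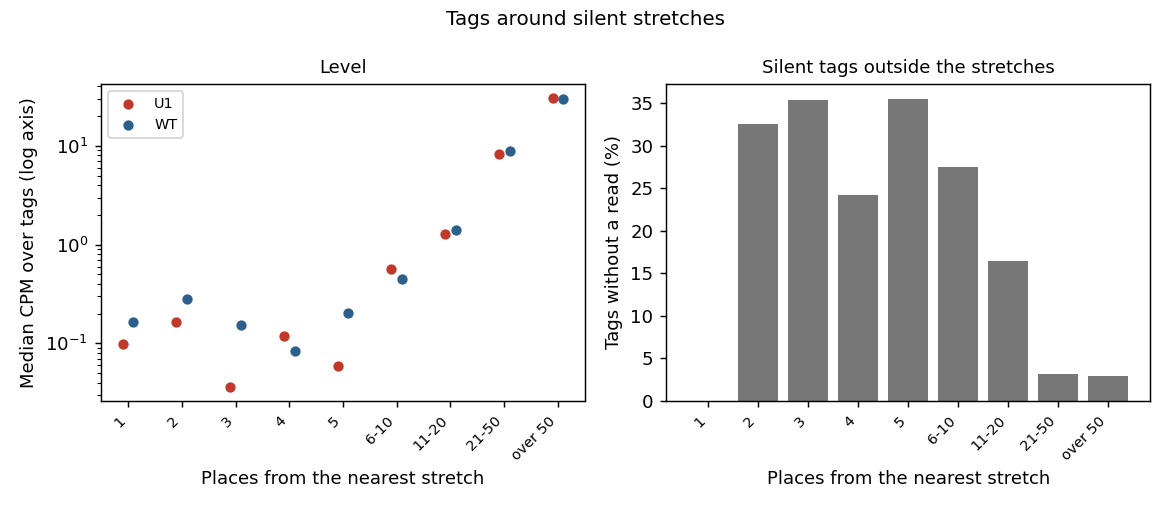
Median level in CPM (left, log scale, U1 red and WT blue) and share of silent tags in percent (right) of tags outside the stretches, by their distance in listed places from the nearest stretch (x axes). Tags at distance 1 are read by definition; the median passes 1 CPM at 11 to 20 places, and the silent share falls to 3.19% at 21 to 50 places.

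The distance from a stretch to the first tag at 10 CPM or more in both strains had a median of 8 places before and 9.5 places after, and was at most 43 and 54 places. In 10 of the 26 stretches such a tag stood within 10 places on both sides. These first well-read tags were 28 in number, with a median of 34.2 CPM in U1 and 40.5 CPM in WT. Of them 9 were called, 2 higher and 7 lower in U1, against the 24.5% called over all tested tags (11.4% higher and 13.1% lower). The latter include tags at lower levels. In a fit of tags at 10 CPM or more in 3 libraries, 1902 of 7260 were called, 875 higher and 1027 lower. Of the 9 calls among the 28 tags, 4 are border tags already counted (AKAW_10187, AKAW_11081, AKAW_11431 and AKAW_11452). Besides AKAW_11452 the highest was AKAW_11165, 4 places before the second longest stretch, at 722 ± 49.8 CPM in U1 and 938 ± 142 CPM in WT (SD, n = 3 each; log2 fold change -0.38, edgeR adjusted p = 0.00972).

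More of the called tags within 5 places of a stretch were lower than higher in U1, and this was also so at some distances farther away. Within 5 places of a stretch, border tags included, 50 tags were tested and 17 were called (34.0%), 4 higher and 13 lower. The share called over all tested tags was 24.5%. At 2 to 5 places, thus without the border tags, 12 of 37 were called, 3 higher and 9 lower. At 6 to 10 places 5 were called higher and 5 lower, and at 11 to 20 places 9 and 15. At 21 to 50 places 23 were called higher and 56 lower, so the excess of lower calls was not particular to the nearest tags. Without WT replicate 1 the 17 calls became 10, with 2 higher and 8 lower, while calls over all tags fell from 2153 to 1660. These tags overlap with the zone, so the counts are not separate results. In the whole zone from AKAW_10181 to AKAW_11461, 598 tags were tested and 170 were called (28.4%), 52 higher (8.7%) and 118 lower (19.7%). Among the read tags outside the zone, 8192 were tested, with 11.6% called higher and 12.6% called lower. From place 10001 to 11000, where 7 stretches begin, 31.4% were called, 66 higher and 124 lower. Among the last 488 listed tags, with 17 stretches, 24.6% were called, 11 higher and 18 lower. From place 9001 to 10000, without a stretch, 28.6% were called, 107 higher and 113 lower. On library totals alone, which raise the median log2 fold change of all tags to 0.077, the zone had 72 higher and 98 lower calls, against 1385 higher and 899 lower calls over all tags. The zone was drawn after the places of the stretches had been seen, and neighbouring tags are not independent, so no test of this difference was made.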

How the data were processed

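RNA of rice koji was sequenced on an Illumina HiSeq 2000, per the labels, in 3 U1 and 3 WT libraries. The authors deposited raw counts per locus tag, 1 table per library. Trimmomatic 0.32 and BWA 0.7.12 are named, per the submitters' processing notes. Nothing in the sources used here gives the counting program, genome build, annotation, strand setting or handling of multiply matching reads. BWA does not split reads across introns. All tables listed the same 11488 tags.

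Stretches and borders were found with Python 3.11.15 and pandas 2.3.3. Strains were compared in R 4.3.3 with edgeR 4.0.16 (filterByExpr, TMM factors of 0.97 to 1.043, robust quasi-likelihood fit on strain, two-sided, Benjamini-Hochberg over 8790 tags). Standard errors are the absolute log2 fold change over the root of F. Alternatives were DESeq2 1.42.0, other scalings and filters, a replicate block, and leaving out each library. Pairs of libraries of a strain differed by more than sampling noise (chi-square over degrees of freedom 2.15 to 7.46). On simulated data of 8790 tags for U1 against WT, 68.7%, 95.5% and 100% of changes of 1.5-fold, 2-fold and 4-fold were recovered. The simulated tags of a given level all had the same spread, so recovery in the real data may be lower. Changes under 1.5-fold were not simulated.

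The rule for the stretches and all sets were chosen with earlier results of these data known. Described in full were the 10 longest stretches, all called border tags (the rule asked for up to 2 rising and 2 falling) and those with the highest counts. No gene lists were used, since tags carry no names.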

Additional observations from a re-analysis of the deposited data

How the results depend on the processing

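Depth limits what a count of 0 shows; gene lengths and the handling of repeated sequences are unknown, and their part was not tested. With up to 3 counts admitted as silent there were 1121 such tags, 404 of them in stretches, and with up to 10 counts 1527 tags, 501 in stretches, and 48 stretches. A shortest stretch of 3, 8 or 10 tags gave 57, 15 or 9 stretches, the last with 145 tags. Without 1 library the silent tags numbered 709 to 724, those in stretches 266 to 283, the stretches 26 to 27 and the longest 30 to 31. Thinned to the smallest library, 262 tags lay in 26 stretches. Breaking stretches at missing numbers changed nothing.

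At an adjusted p under 0.01, 1416 of all tags (634 higher in U1), 2 border tags (0 higher, 2 lower) and 11 tags within 5 places (2 higher) were called. DESeq2's Wald test called 0 border tags as higher, with 1 at an unadjusted p under 0.05, and 2 tags within 5 places as higher. It called 4 border tags as lower. Its calls over all tags were also fewer, 1710 (786 higher in U1) against 2153 (1002 higher) with edgeR. Without 1 library 2 to 4 border tags were called (0 to 1 higher, 2 to 4 lower), and 10 to 16 tags within 5 places (2 to 4 higher, 8 to 13 lower). All tags called then numbered 1625 to 2069. The WT median of border tags was 0.0843 CPM for stretches of 10 or more and 0.127 to 0.246 CPM without 1 WT library; in U1 it was 0.11 to 0.147 CPM without 1 U1 library. The cause of these shifts was not tested.

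With the replicate block 6 border tags and 2091 tags in all were called. Libraries sharing a replicate number had deviations from their strain means that correlated at -0.037, 0 and -0.068. No library correlated best with its own number. The deviations of 3 libraries from their mean depend on each other, and a batch shared by libraries of the same number was not tested. The counts of calls in the zone were set up after the data had been seen.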

Other observations

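Single reads next to the stretches came more often from WT than from U1. Of the 16 border tags with 1 read in all, 4 were read in U1 and 12 in WT, 6 of these in WT replicate 3, the smallest library. Over all 188 tags with a total of 1 read, U1 libraries held 80 and WT libraries 108, or 57.4% in WT, while WT libraries hold 42.3% of all counts. At a total of 2 reads the WT share was 38.9% and at a total of 3 reads 45.8%. No test of these shares was made.

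At an admitted total of 3 reads, further blocks appeared outside the zone, among them AKAW_09450 to AKAW_09456 with 7 tags and 5 reads in U1 and 3 in WT. Of these blocks, AKAW_04748 to AKAW_04752 and AKAW_08289 to AKAW_08294 had reads in U1 (1 and 5) and 0 in WT. The rest had reads in both strains, such as AKAW_07199 to AKAW_07203 with 8 in U1 and 7 in WT. AKAW_04748 to AKAW_04752 and AKAW_09450 to AKAW_09454 were already blocks with tags of 1 count admitted.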
